A study of Mus musculus with 5 samples.

Results

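The direct p53 target genes described here are 10 genes that the transcription factor p53 is known to switch on in other cells, and they were read from the gene counts of mouse embryonic neural tubes with and without EpoR, the gene of the erythropoietin receptor. They are Cdkn1a, Ccng1, Bbc3, Pmaip1, Perp, Aen, Eda2r, Trp53inp1, Phlda3 and Zmat3, chosen by symbol from 23284 genes counted, and all 10 were found. The neural tube is the embryonic tissue that forms the brain and spinal cord. PolyA RNA was sequenced from 2 samples labelled EpoR -/- (EpoR-null), 2 labelled EpoR +/+ (wild type) and 1 labelled EpoR +/- (heterozygote), all at E8.5 by the labels, while the methods of the study give a slightly later stage. The wild type and heterozygous littermates together were the 3 controls, all came from EpoR +/- matings, and no other allele or treatment was stated. The labels do not say whether a sample was 1 embryo or a pool, so the spread between samples may be partly technical.

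In cells, p53 protein is kept low by Mdm2, a ubiquitin ligase that marks it for degradation, and by Mdm4, which binds p53 and blocks its activity. Hipk2 is a kinase that phosphorylates p53 after severe DNA damage and favours the genes of cell death. Mdm4 and Hipk2 are thus known to act on p53 in opposite directions. Much of the control of p53 acts on the protein, which RNA counts do not measure, so the RNA of its target genes is the usual readout. In the neural epithelium p53 activity is known to drive cell cycle arrest and cell death, and mouse embryos with too much of it have neural tube defects.

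Matches to the pattern of letters that p53 is known to bind were found near the starts of some of these genes. Promoter windows of RefSeq on GRCm38.p6, from 250 bases before to 50 after each gene start, were matched to 6 of the 10 genes, and no window was matched for Trp53inp1, Perp, Zmat3 or Pmaip1. The p53 half-site was searched as 3 purines, C, 2 bases that are A or T, G and 3 pyrimidines, a pattern that covers both strands because it is its own reverse complement. It was present in windows of 3 of the 6 genes, Cdkn1a, Ccng1 and Aen. These 6 genes had 10 windows, as some have several starts, and both windows of Aen held the same site. Of all 32851 windows 8.36% held a half-site, a share per window and not per gene. A pair of half-sites with at most 13 bases between them was present for Cdkn1a alone among the members, and in 0.0731% of all windows. The half-sites are shown in capitals because they match the pattern. Whether p53 acts on these genes through them was not tested, and sites outside the windows were not searched. Those of Trp53, the gene of p53 itself, and of Mdm2, a p53 target that feeds back on p53, are shown beside them.
Cdkn1a (chr17:29090892-29090951, plus strand): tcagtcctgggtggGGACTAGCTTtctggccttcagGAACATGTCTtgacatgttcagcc
Ccng1 (chr11:40755452-40755481, minus strand): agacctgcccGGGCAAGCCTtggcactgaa
Aen (chr7:78895927-78895956, plus strand): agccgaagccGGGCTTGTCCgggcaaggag
Trp53 (chr11:69580274-69580303, plus strand): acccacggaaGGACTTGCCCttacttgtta
Mdm2 (chr10:117710925-117710954, minus strand): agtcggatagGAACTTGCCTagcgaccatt
The half-sites of Cdkn1a began 73 and 51 bases before its first annotated start, with 12 bases between them. The window of its second annotated start (chr17:29093519-29093818) held 0 half-sites. The half-site of Ccng1 began 185 bases before its start. The half-site of Aen began 10 bases after its first annotated start and 121 bases before its second. No half-site lay in the windows of Phlda3, Eda2r, Bbc3, Mdm4 or Hipk2, which says only that these letters are not in these windows. A match is a description of letters, and binding was not measured.

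Reads counted on genes ranged from 19316126 to 41169218 per sample, so that 3 reads of a gene were worth between 0.0729 and 0.155 CPM, where CPM is a read count scaled for depth, here with TMM factors of 0.936 to 1.03. Epor itself had 57, 68 and 11 reads in wild type 1, wild type 2 and the heterozygote (2.35, 1.62 and 0.475 CPM), and 7 and 19 reads in EpoR-null 1 and 2 (0.353 and 0.668 CPM). The library labelled heterozygote thus lay between the EpoR-null samples for Epor, and which part of the gene the null allele lacks is not given in the sources used here. The same library had the lowest level of all 8 endothelial markers and of 8 of 9 primitive erythroid markers, at a summed 13.3 against 201 and 315 CPM in the wild type, and 45.4 against 1098 and 610 CPM. Neural progenitor markers were high in every sample, at a summed 1399 to 1801 CPM. Newborn neuron markers summed to 1179 CPM in EpoR-null 1 and 270 in EpoR-null 2, against 376 to 630 in the controls, with all 9 higher in EpoR-null 1. Paraxial mesoderm markers summed to 125 and 44.8 CPM in EpoR-null 1 and 2 (controls 17.4 to 69.5), primitive erythroid markers to 1703 and 969 and neural crest markers to 225 and 144 (controls 75.3 to 190). Endothelial markers summed to 274 and 148 CPM, with all 8 higher in EpoR-null 1. No marker of these lists or of surface ectoderm passed the test between genotypes. In such bulk samples, fewer cells of a type and less RNA per cell cannot be told apart.

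No direct p53 target passed the test between EpoR-null and control neural tubes. Of the 9 that could be tested, 0 were called higher and 0 lower in the exact test of edgeR at an FDR under 0.05 (Benjamini-Hochberg over all 12703 genes tested). The study used the same test and also asked for a p under 0.001, a cut left out here, and 4.77% of tested genes and 0 members met both. Of all tested genes, 7.31% were called, 1.81% higher and 5.49% lower, so that a list of 9 genes at the background share would hold fewer than 1 call. At an unadjusted p under 0.05 there was 1 member, Eda2r, in the exact test and, likewise, in edgeR's quasi-likelihood F-test. These shares of 11.1% lay below the 19.8% and 24.0% of all tested genes with such a p in each test. At an FDR under 0.05 the quasi-likelihood F-test called 0 of all 12703 genes tested, so its 0 calls among the members say nothing about them. DESeq2 called 0 of the 6 members to which it gave an adjusted p. Over all 12703 genes tested it called 1737 and gave 2218 no adjusted p. At that background, 0 of 6 members says little. The median log2 fold change of the 9 was -0.05, against 0.06 over all tested genes, and the values ran from -0.99 for Eda2r to 0.67 for Cdkn1a, with 4 above 0 and 5 below. The tenth gene, Perp, had too few reads for the filter, a CPM above 1 in at least 2 samples. The summed level of all 10 genes was 264, 259 and 287 CPM in wild type 1, wild type 2 and the heterozygote, and 237 and 273 CPM in EpoR-null 1 and 2, so the groups overlapped.

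**Figure D1:**
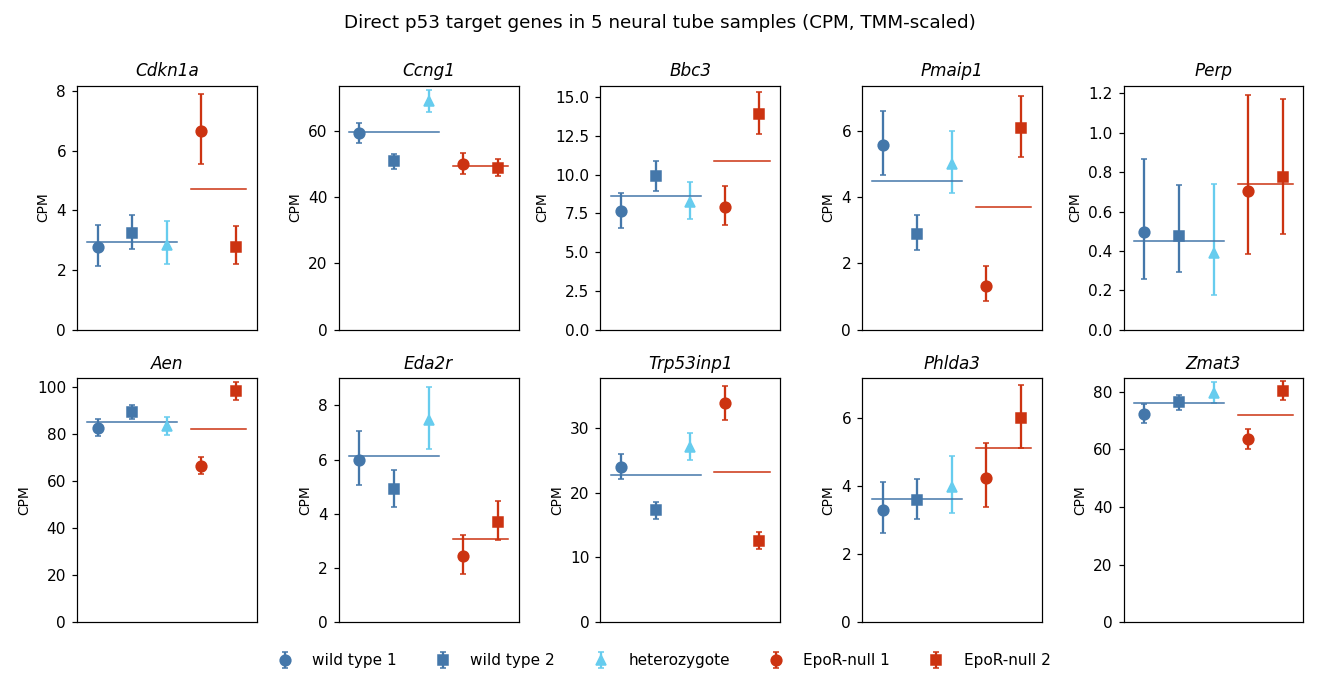
Level of each direct p53 target in each of the 5 samples, in CPM on a linear axis from 0. Points are samples, bars are exact Poisson 95% intervals that cover counting error only, and horizontal lines are group means; both EpoR-null samples lie above every control for Phlda3 and Perp, both lie below for Ccng1 and Eda2r, and the groups overlap for the other 6 genes.

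Of the arrest genes, Cdkn1a encodes p21, the inhibitor of cyclin-dependent kinases that carries much of the p53 arrest (GRCm38 chromosome 17, 29090976 to 29100727, plus strand). Cdkn1a had 67, 136 and 66 reads in wild type 1, wild type 2 and the heterozygote, or 2.77, 3.24 and 2.85 CPM, and 132 and 79 reads in EpoR-null 1 and 2, or 6.66 and 2.78 CPM. Only EpoR-null 1 was high, 2.4 times EpoR-null 2, and its counting interval of 5.57 to 7.9 CPM lay above every control, while EpoR-null 2 lay among the controls. Controls averaged 2.95 ± 0.251 CPM (SD, n = 3), and EpoR-null samples 4.72 ± 2.74 CPM (SD, n = 2). The log2 fold change was 0.67 ± 0.49 (SE, 95% interval -0.29 to 1.62, exact test of edgeR, FDR 0.46), so the difference was within the spread between samples. An antisense transcript, AC167363.2, shares exon bases with Cdkn1a in GENCODE M21 and is not in the count tables, and without a stated strand setting its reads cannot be told from those of Cdkn1a.

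Ccng1 encodes cyclin G1, a p53-induced cyclin that brings a phosphatase to Mdm2 (chromosome 11, 40748552 to 40755311, minus strand). Its counts were 1436, 2133 and 1597 in wild type 1, wild type 2 and the heterozygote, or 59.3, 50.8 and 69.0 CPM, and 991 and 1387 in EpoR-null 1 and 2, or 50 and 48.8 CPM. Both EpoR-null samples lay below every control, but wild type 2 was within 1 CPM of EpoR-null 1. Its log2 fold change was -0.27 ± 0.19 (SE, 95% interval -0.64 to 0.10, exact test of edgeR, FDR 0.448). Wild type 2 and both EpoR-null samples were thus close in level, and the heterozygote stood highest.

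Among the genes of cell death, Bbc3 and Pmaip1 encode PUMA and Noxa, the BH3-only proteins through which p53 opens the mitochondrial route of apoptosis. Bbc3 (chromosome 7, 16308393 to 16318205, plus strand) had 7.64, 9.88 and 8.25 CPM in wild type 1, wild type 2 and the heterozygote and 7.92 and 13.9 CPM in EpoR-null 1 and 2. EpoR-null 2 was above all controls and EpoR-null 1 among them, and the log2 fold change was 0.35 ± 0.36 (SE, exact test of edgeR, FDR 0.639). Pmaip1 (chromosome 18, 66458533 to 66465565, plus strand) had 5.57, 2.9 and 5.01 CPM in the same controls and 1.31 and 6.09 CPM in EpoR-null 1 and 2. These were the lowest and the highest samples for the gene, 4.64 times apart, with all 3 controls between them. Its log2 fold change of -0.27 ± 0.70 (SE, exact test of edgeR, FDR 0.895) had the widest interval of the 9, from -1.65 to 1.11.

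Aen, a nuclease that degrades DNA during apoptosis (chromosome 7, 78895854 to 78911209, plus strand), had 82.6, 89.5 and 83.5 CPM in wild type 1, wild type 2 and the heterozygote and 66.4 and 98.4 CPM in EpoR-null 1 and 2. The EpoR-null samples lay on opposite sides of the controls, and the log2 fold change was -0.05 ± 0.20 (SE, exact test of edgeR, FDR 0.939). Perp, a tetraspan membrane protein of epithelia and of p53-driven apoptosis (chromosome 10, 18845020 to 18857073, plus strand), was close to silent. It had 12, 20 and 9 reads in the controls (0.495, 0.476 and 0.389 CPM) and 14 and 22 reads in EpoR-null 1 and 2 (0.706 and 0.774 CPM). Both EpoR-null samples were above every control, their counting intervals overlapped those of the controls, and without the low-count filter the log2 fold change was 0.66 (exact test of edgeR, FDR 0.609). Perp is also expressed in surface ectoderm, whose summed markers were 15.6, 24.9 and 6.13 CPM in the controls and 15.6 and 30.7 CPM in EpoR-null 1 and 2, with Krt14 at 0 throughout. Krt8 and Krt18, the only 2 of these 10 markers with enough reads to test, made up most of the sums. Cdh1 was at 0.99, 0.904 and 0.173 CPM in the controls and 0.605 and 0.739 CPM in EpoR-null 1 and 2. The part of these markers in the value of Perp was not tested.

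Eda2r, a receptor of the tumour necrosis factor family that binds ectodysplasin A2 (chromosome X, 97333840 to 97377216, minus strand), had the lowest p of the members. It had 145, 206 and 173 reads in wild type 1, wild type 2 and the heterozygote, or 5.98, 4.9 and 7.47 CPM, and 48 and 105 reads in EpoR-null 1 and 2, or 2.42 and 3.69 CPM. Both EpoR-null samples lay below every control. Controls averaged 6.12 ± 1.29 CPM (SD, n = 3), and EpoR-null samples 3.06 ± 0.899 CPM (SD, n = 2). The log2 fold change was -0.99 ± 0.40 (SE, 95% interval -1.77 to -0.20). The exact test of edgeR gave a p of 0.0165 and an FDR of 0.131, the quasi-likelihood F-test an FDR of 0.142 and DESeq2 one of 0.0596, so Eda2r did not pass in any of them. The sign of its fold change was opposite to that of Cdkn1a. Without the heterozygote, which had the highest Eda2r, the log2 fold change was -0.82 (FDR 0.469).

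Trp53inp1 encodes a stress-induced nuclear protein that promotes p53 phosphorylation and autophagy (chromosome 4, 11156431 to 11174379, plus strand). Its levels were 24.0, 17.3 and 27.0 CPM in wild type 1, wild type 2 and the heterozygote and 33.8 and 12.6 CPM in EpoR-null 1 and 2. As for Pmaip1, the EpoR-null samples were the extremes, here with EpoR-null 1 on top and 2.69 times EpoR-null 2, and the log2 fold change was 0.03 ± 0.47 (SE, exact test of edgeR, FDR 0.981). EpoR-null 1 was also the sample with the highest summed markers of newborn neurons, paraxial mesoderm, primitive erythroid cells and neural crest, and their part in the levels of Trp53inp1 and Cdkn1a was not tested.

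Phlda3 and Zmat3 were the remaining members. Phlda3, a small protein that competes with the kinase AKT for membrane lipids (chromosome 1, 135766119 to 135769136, plus strand), had 3.3, 3.57 and 3.97 CPM in wild type 1, wild type 2 and the heterozygote and 4.24 and 5.98 CPM in EpoR-null 1 and 2. Both EpoR-null samples were above every control, by little in EpoR-null 1, and the log2 fold change was 0.50 ± 0.36 (SE, 95% interval -0.20 to 1.21, exact test of edgeR, FDR 0.459). Zmat3, a zinc finger protein that binds RNA (chromosome 3, 32334792 to 32366014, minus strand), had 72.5, 76.4 and 79.8 CPM in the controls and 63.5 and 80.3 CPM in EpoR-null 1 and 2. The groups overlapped, and its log2 fold change of -0.08 ± 0.16 (SE, exact test of edgeR, FDR 0.835) had the narrowest interval of the 9, from -0.41 to 0.24.

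Per kilobase of the longest annotated transcript, the controls expressed Aen (17.2 CPM per kilobase) and Ccng1 (17.0) most, and these levels overlapped. Zmat3 followed at 9.78, then Bbc3 at 4.73 and Trp53inp1 at 4.19, whose samples overlapped, and Phlda3 at 2.52. Pmaip1 (1.65), Cdkn1a (1.42) and Eda2r (1.29) overlapped among themselves, and Perp was last at 0.232 CPM per kilobase. The main arrest gene was thus among the least expressed members in control neural tubes.

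**Figure D2:**
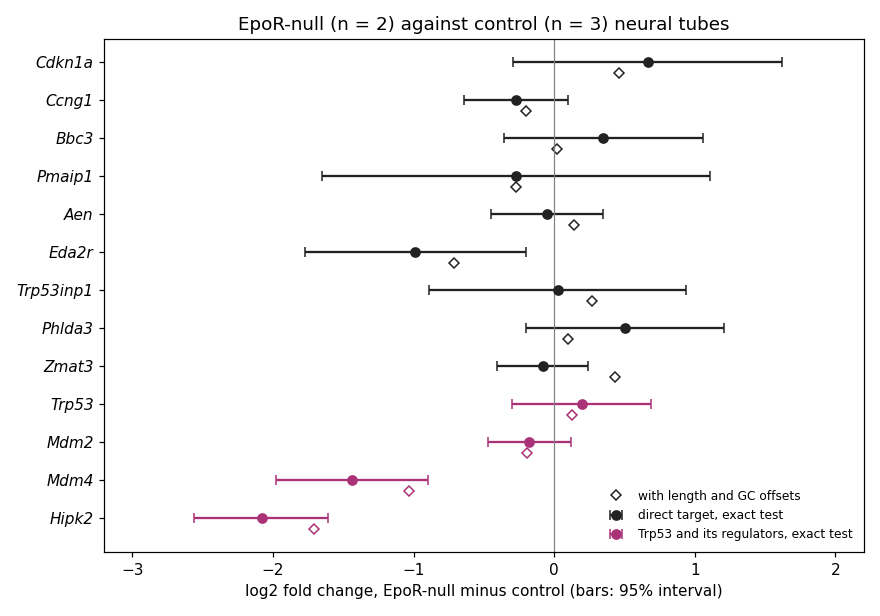
Log2 fold change of the 9 tested members and of Trp53, Mdm2, Mdm4 and Hipk2, EpoR-null (n = 2) minus control (n = 3). Filled points and bars are estimates and 95% intervals at the dispersions of the exact test, and open diamonds are the same fold changes once offsets remove trends on transcript length and GC content; the interval excludes 0 for Eda2r, Mdm4 and Hipk2, and only Mdm4 and Hipk2 passed the FDR threshold.

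The question behind these genes is whether lower Mdm4 and Hipk2 went with a p53 response. Mdm4 had 75.7, 62.9 and 71.7 CPM in wild type 1, wild type 2 and the heterozygote and 33.0 and 18.7 CPM in EpoR-null 1 and 2. Hipk2 had 44.8, 41.2 and 48.5 CPM in the controls and 12.8 and 8.44 CPM in EpoR-null 1 and 2. Both genes were lower in both EpoR-null samples than in any control, with log2 fold changes of -1.44 ± 0.28 and -2.08 ± 0.24 (SE, exact test of edgeR, FDR 0.000102 and 4.78e-12). The quasi-likelihood F-test gave the same fold changes with an FDR of 0.071 for Mdm4 and 0.059 for Hipk2, and so did not call them. Its lowest FDR over all tested genes was 0.059. Trp53 RNA was at 202, 233 and 204 CPM in the controls and 183 and 305 CPM in EpoR-null 1 and 2, and Mdm2, which is both a p53 target and its main inhibitor, at 67.1, 61.4 and 67.7 against 61.1 and 54.6 CPM. Neither passed the test, with log2 fold changes of 0.20 ± 0.25 (FDR 0.711) and -0.18 ± 0.15 (FDR 0.559, exact test of edgeR). EpoR-null 2 had the lowest Mdm4 and Hipk2 and also the lowest RNA of the p53 target Mdm2. It had the most Bbc3, Pmaip1, Perp, Aen, Phlda3 and Zmat3, but not the most Cdkn1a, Ccng1, Eda2r or Trp53inp1. For Zmat3 it was nearly level with the heterozygote (80.3 and 79.8 CPM), and for Perp with EpoR-null 1 (0.774 and 0.706 CPM). The share of all genes highest in this 1 sample was not counted, and a link to its Mdm4 or Hipk2 was not tested.

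In most members, as in most tested genes, the EpoR-null samples stood apart from each other. In 7 of the 9 tested genes (77.8%) the gap between them was larger than the whole range of the 3 controls, on a scale of log2(CPM + 0.5), as it was in 67.0% of all tested genes. The median gap was 0.56 in the members and 0.32 over all tested genes. EpoR-null 2 was the highest of the 5 samples for 6 of the 10 members and the lowest for 2, and EpoR-null 1 was the highest for 2 and the lowest for 4. Such extremes were not counted over all genes. Both EpoR-null samples lay above every control in 1 of the 9 tested members (Phlda3) and below every control in 2 (Ccng1 and Eda2r). Over all tested genes these shares were 21.2% and 22.1%, at which 9 genes would hold about 2 of each kind.

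**Figure D3:**
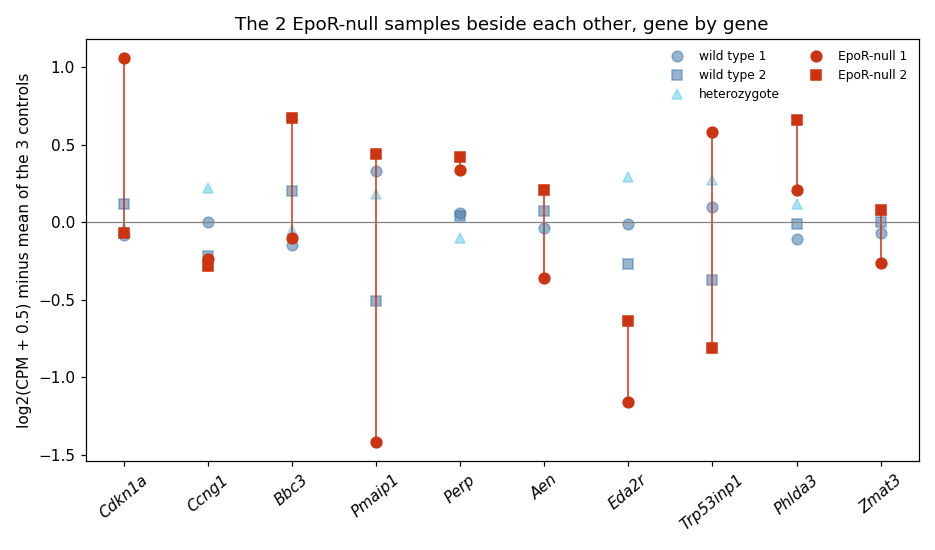
Each sample's log2(CPM + 0.5) for the 10 members, minus the mean of the 3 controls for the same gene. Red lines join EpoR-null 1 and EpoR-null 2, which lie on opposite sides of the control mean for Cdkn1a, Bbc3, Pmaip1, Aen, Trp53inp1 and Zmat3 and on the same side for Ccng1, Perp, Eda2r and Phlda3.

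Which members passed therefore depended on which EpoR-null sample was used. With EpoR-null 1 alone against the 3 controls, Cdkn1a was higher (log2 fold change 1.17, FDR 0.02) and Aen lower (-0.36, FDR 0.0465) in the exact test of edgeR, against a background of 13.1% of genes called. With EpoR-null 2 alone, Trp53inp1 was lower (-0.85, FDR 0.0464), against a background of 30.0%, and Cdkn1a was at -0.09 (FDR 0.955). These fits take the lone sample to vary as the controls do, and no member passed in both. With the heterozygote left out, or either wild type sample, 0 members passed.

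The wider p53 programme was described with 44 other known targets, of which 41 were tested and 0 passed in either direction in the exact test of edgeR. At an unadjusted p under 0.05 there were 3 (7.32%), and 4 (9.76%) in the quasi-likelihood F-test, below the 19.8% and 24.0% of all tested genes. The quasi-likelihood F-test called 0 of them, as it called 0 of all tested genes. DESeq2 called 0 of the 37 to which it gave an adjusted p. Over all 12703 genes tested it called 1737 and gave 2218 no adjusted p. The median log2 fold change of the 41 was 0.06, that of all tested genes. Bax, the effector that permeabilizes mitochondria, had the lowest FDR of them (0.104), at 62.7, 67.3 and 66.4 CPM in the controls and 75.4 and 109 CPM in EpoR-null 1 and 2. The largest change was that of Cd82, a tetraspanin, at 1.24, 1.17 and 0.907 against 2.12 and 1.90 CPM (log2 fold change 0.85, FDR 0.195). Both EpoR-null samples lay above every control in 10 of the 41 (24.4%, against 21.2% of all tested genes) and below in 6 (14.6%, against 22.1%). Of these 41 genes, 4 passed with EpoR-null 1 alone (9.76%, against 13.1%) and 6 with EpoR-null 2 alone (14.6%, against 30.0%), and the 1 gene in both, Trp53inp2, moved up in the first and down in the second.

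Of the regulators of p53, 7 of 27 tested were lower and 0 higher in the exact test of edgeR, where 5.49% and 1.81% of all tested genes were, with a median log2 fold change of -0.18. Besides Mdm4 and Hipk2 they were the kinases Atm (-0.84, FDR 1.26e-05), Atr (-0.60, FDR 0.014) and Prkdc (-0.68, FDR 0.0491), which sense DNA damage, and the acetyltransferases Ep300 (-0.83, FDR 5.25e-07) and Crebbp (-0.91, FDR 0.000799), coactivators of p53. All but Prkdc also had a p under 0.001. The study had already reported Mdm4, Hipk2, Atm and Atr as lower in these samples. The list was chosen with earlier results known, so its shares describe it and are not an independent result. Both EpoR-null samples lay below every control in 15 of the 27 (55.6%, against 22.1% of all tested genes). They lay above in 5 (18.5%, against 21.2%). At an unadjusted p under 0.05 there were 13 (48.1%) in the exact test and 13 in the quasi-likelihood F-test. These shares compare with 19.8% and 24.0% of all tested genes. The quasi-likelihood F-test called 0 of the 27, as it called 0 of all tested genes. The list shares 3 genes with the wider targets, Mdm2, Ppm1d and Pml, and these did not pass.

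Cell cycle genes that p53 lowers through p21 and the DREAM repressor complex were read as the other end of the pathway. Of the 30 tested, 3 were lower (Cenpf -0.72, FDR 0.0119, Cenpe -0.74, FDR 0.0311, and Ncapg -0.44, FDR 0.0405) and 0 higher in the exact test of edgeR, a share of 10% lower against 5.49% of all tested genes, with a median of -0.10. Of the 3, only Cenpf also had a p under 0.001. Cenpf and Cenpe are kinetochore proteins and Ncapg is a condensin subunit, all of mitosis. The quasi-likelihood F-test called 0 of the 30, as it called 0 of all tested genes. All 3 were below every control in both EpoR-null samples, with 192 and 143 CPM of Cenpf in EpoR-null 1 and 2 against 239 to 299 in the controls. Of the 30 genes, 16 lay below every control in both EpoR-null samples (53.3%, against 22.1% of all tested genes). Another 4 lay above (13.3%, against 21.2%). At an unadjusted p under 0.05 there were 11 (36.7%) in the exact test and 11 in the quasi-likelihood F-test. These shares compare with 19.8% and 24.0% of all tested genes. Over the 30 genes, 14 were higher in EpoR-null 1 than in EpoR-null 2, and 16 were lower. The same share was not counted over all tested genes, and a link to the level of Cdkn1a was not tested.

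**Figure D4:**
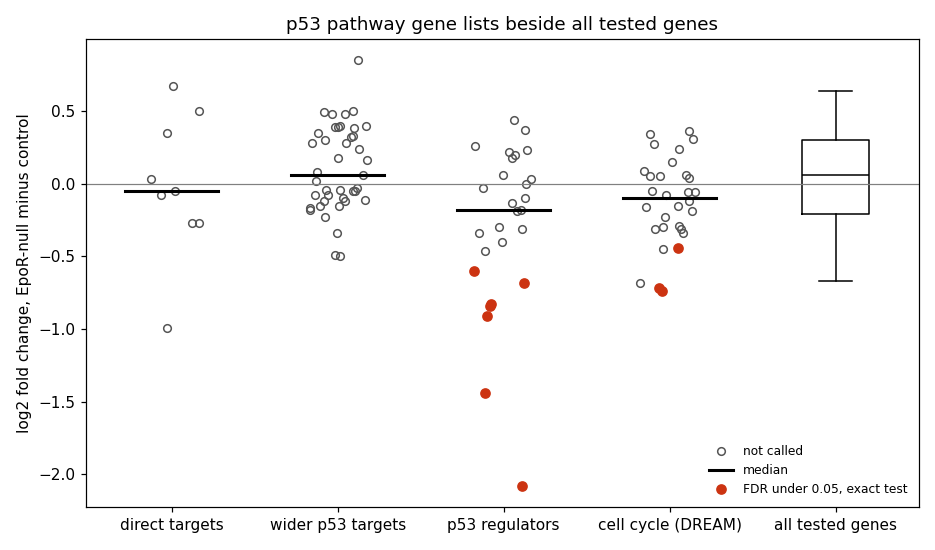
Log2 fold change, EpoR-null minus control, of every tested gene of 4 lists, with the median as a bar and genes at an FDR under 0.05 in the exact test of edgeR filled. The box of all 12703 tested genes spans the quartiles and its whiskers the 5th to 95th percentile; the filled genes are 7 regulators and 3 cell cycle genes, all lower, and none of the direct or wider targets.

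The lists were read again with offsets that remove each sample's trend on transcript length and GC content (likelihood-ratio test of edgeR, 12568 genes with a known transcript). With them 1.26% of genes passed. Direct targets remained at 0 of 9, with a median log2 fold change of 0.10. Phlda3 went from 0.50 to 0.10 and Bbc3 from 0.35 to 0.02, while Zmat3 went from -0.08 to 0.43 and Aen from -0.05 to 0.14, so these 2 changed sign. Eda2r was at -0.71 (FDR 0.871) and Cdkn1a at 0.46. Of the regulators only Mdm4 (-1.03, FDR 3.32e-06) and Hipk2 (-1.71, FDR 1.94e-12) remained, and the others shrank, Atm to -0.20, Atr to -0.03, Ep300 to -0.28 and Crebbp to -0.34, while Prkdc was at 0.05. Of the cell cycle genes and wider targets none passed, with Cenpf at -0.06, Cenpe and Ncapg both at -0.26 and Bax at 0.03. The median of the cell cycle genes was -0.13 with the offsets and -0.10 without them. With the offsets, medians were -0.04 in the regulators, -0.00 in the wider targets and 0.03 over all genes. As only 1.26% of genes passed, 0 calls in lists of these sizes say little.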

How the data were processed

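Raw read counts per gene, 1 table per sample, were deposited without normalization. Per the labels, the authors' tools were Trimmomatic (0.32) for trimming, TopHat2 (2.1.0) for alignment to mm9 and HTSeq (0.6.1) for counting. The methods of the study name a human build and another TopHat version, and the strand setting is not given in the sources used here. HTSeq drops reads shared by genes or placed at several sites. Its summary lines, which held 9.06% to 12.7% (no gene), 2.12% to 2.57% (ambiguous) and 13.5% to 16.0% (several sites) as many reads as the genes, stayed out of library sizes and tests.

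Tests were run with edgeR 4.0.16 and DESeq2 1.42.0 (R 4.3.3). TMM and exactTest were those of the study, EpoR-null against 3 controls. Tagwise dispersions, Benjamini-Hochberg adjustment and the filter (above 1 CPM in at least 2 samples) were set here, and genes were called at an FDR under 0.05 without the study's further cut of p under 0.001. It was tested on simulated data. The quasi-likelihood F-test stands beside it. Standard errors use the negative binomial information, and Poisson intervals and read floors cover counting error only. Coordinates are GENCODE M21 on GRCm38, matched by symbol, since no mm9 genome was used here, and promoter windows are RefSeq GRCm38.p6.

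The 10 members, the other lists and the tests were chosen with earlier results of these data known. Genes named were all members, Trp53, Mdm2, Mdm4, Hipk2 and, in the other lists, those passing (at most 8 by lowest p) and the largest log2 fold change. Bax, Trp53inp2 and the list overlaps were named after their values were seen. Alternatives were DESeq2, a replicate block, RLE factors, library size only, no filter, a common dispersion, a floor of 10 reads in every sample, leaving out each sample in turn, and the likelihood-ratio test without and with length and GC offsets (loess span 0.5).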

Additional observations from a re-analysis of the deposited data

How the results depend on the processing

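With whole groups, 0 direct targets passed under any alternative, and with 1 sample left out from 0 to 2 did. All tested genes that passed numbered 928 (606 with a p also under 0.001, the study's cut, with 6 regulators and 1 cell cycle gene), against 0 with the quasi-likelihood F-test (3052 at an unadjusted p under 0.05), 1737 with DESeq2, 258 with a common dispersion, 158 with length and GC offsets, and 115 to 3778 with 1 sample left out. The 7 regulators became 0, 12, 2 and 2 in the same order and 4 to 15 with 1 sample left out. The 3 cell cycle genes became 0, 9, 0 and 0, and 0 to 14, and the wider targets, at 0 in all of these, had 0 to 6. Without EpoR-null 1 there were 15 regulators and 14 cell cycle genes, and without wild type 1 there were 4 and 0. The causes were not tested beyond what leaving a sample out shows.

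With 1 sample left out, the log2 fold change ranged from -0.09 to 1.17 for Cdkn1a, -0.38 to -0.16 for Ccng1, -0.85 to 0.57 for Trp53inp1, 0.23 to 0.73 for Phlda3, -0.27 to 0.08 for Zmat3, -1.33 to -0.72 for Eda2r, -1.77 to 0.45 for Pmaip1, -0.12 to 0.69 for Bbc3 and -0.36 to 0.21 for Aen, and for Trp53 from -0.22 to 0.52. Without wild type 2, Trp53inp1 was at -0.14. It was at -0.00 without the low-count filter. With the offsets, Zmat3 was at 0.43, Aen at 0.14 and Prkdc, a regulator, at 0.05. Other alternatives turned no member.

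The replicate numbers of the labels are shared by wild type and EpoR-null, but nothing says that a number marks a litter. Across genes, which are not replicates, the difference between numbers 1 and 2 in the wild type correlated with that in EpoR-null (Pearson's r 0.468). With the number as a replicate block the quasi-likelihood F-test called 695 genes, 0 direct targets, 7 regulators, 2 cell cycle genes and 0 wider targets, with Mdm4 at an FDR of 0.0422 and Hipk2 at 0.041. Cdkn1a was at 0.64 and Eda2r at -0.99 (FDR 0.152). Depth limited Perp most, with 9 to 22 reads per sample.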
